A study of Homo sapiens with 6 samples.

Results

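The genes described here are the ligands and receptors of the tumour necrosis factor (TNF) superfamily. They were taken as the protein-coding rows whose symbol is TNFRSF or TNFSF followed by a number and at most 1 letter, together with TNF, LTA, LTB, FAS, FASLG, CD40, LTBR and NGFR. This gave 40 members among 20049 protein-coding genes, 25 receptors and 15 ligands. RNA sequencing was done on LX-2, an immortalised line of human hepatic stellate cells, labelled mesenchymal. The control group (3 samples) carried a control siRNA and the PERK siRNA group (3 samples) an siRNA against PERK, the endoplasmic reticulum stress sensor encoded by EIF2AK3. Both groups received palmitic acid, a saturated fatty acid, and RNA was taken 24 h later. Every sample analysed here had palmitic acid, and siRNA lowers a transcript without removing it. Whether the 3 samples of a group were grown separately is not stated in the labels. The p-values therefore rest on sample-to-sample spread that could be technical.

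Ligands of this family are trimeric proteins, most of them anchored in the membrane and some released by proteases. They bind receptors with cysteine-rich outer domains. One class of receptors carries a death domain inside the cell and recruits FADD or TRADD, which lead to caspases or to NF-κB. Another class lacks it and recruits TRAF adaptors, which switch on NF-κB and MAP kinases, and decoy receptors bind ligand without passing on a full signal. In the liver, TNF, FAS ligand and TRAIL are known as regulators of hepatocyte death and stellate cell survival.

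Libraries held 17937141 to 19585872 exon reads, so that 3 reads, taken as the detection floor, stood for 0.153 to 0.167 CPM. CPM are a gene's reads scaled to a common library size, with TMM factors for single genes. Such floors cover counting error only. The EIF2AK3 transcript was at 12.9 to 13.9 CPM in the control samples and 4.37 to 5.52 CPM with PERK siRNA, 37.5% of the control level. Of 12 stellate cell markers 10 passed the expression filter, their sum being 4759.2 to 4951.3 CPM in controls and 4868.1 to 4874.7 CPM with PERK siRNA. Most of this sum was COL1A1 and SPARC; 5 of the 10 rose, among them ACTA2 (1.95) and COL1A2 (1.2), and 2 fell, COL3A1 (-0.89) and PDGFRB (-0.17). DES, also on this marker list, had no read in the control samples and 2 reads in all with PERK siRNA, and LRAT had 8 and 11 reads in all. Among 7 T and NK cell markers, CD3E, CD3G, CD2 and NKG7 had no read in any sample, and the sum reached at most 0.416 CPM. Of 7 macrophage markers, CD163 and MARCO had no read. Among the 3 tested, CSF1R (log2 fold change -3.14) and CD14 (-0.48) fell and none rose. PTPRC, too scarce to test, had 17 reads over the controls and 32 with PERK siRNA. The macrophage sum ran from 81.7 to 85.1 CPM in controls and from 72.6 to 75.4 CPM with PERK siRNA, most of it CD68. Endothelial markers summed to 11.2 to 11.6 CPM and 3.03 to 3.63 CPM, most of that difference being PECAM1. Cholangiocyte or epithelial markers summed to 129.7 to 138.9 CPM in controls and 86.2 to 97.7 CPM with PERK siRNA, and KRT7 (-0.82) and SOX9 (-0.54) fell. Markers of B or plasma cells summed to 0.59 to 0.777 CPM and 1.18 to 1.2 CPM, and CD79B rose (0.69, adjusted p = 0.048). The part of these markers in the results on the family was not tested. In bulk RNA, fewer cells of a type and less RNA per cell cannot be told apart.

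Most measured members stood lower with PERK siRNA. Of the 40 members 25 passed the expression filter, and of these 16 were lower and 3 higher at an adjusted p under 0.05. Over all 12973 tested genes, 69.5% were called, 35.0% lower and 34.4% higher, and the median log2 fold change was 0 against -0.44 for the 25 members. A filtered count is not independent of direction: TNFSF15 and TNFSF10 passed the filter only through their control samples, and no member passed only through the PERK siRNA samples. For 18 of the 25 the groups did not overlap, a share of 72% beside 71.8% of all tested genes. Differences over 2-fold were seen in 4 members (TNFSF15, TNFRSF9, TNFSF10 and TNFRSF11B), all lower, where 7.91% of all genes were called and over 2-fold. Against a null of a 1.2-fold change, 13 of 25 members were called, 12 lower and 1 higher, beside 36.1% of all genes. Summed over the members, without TMM factors, the libraries held 890.8 to 939.5 CPM in the control group and 753.5 to 756.9 CPM with PERK siRNA, so the groups did not overlap in this sum.

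**Figure D1:**
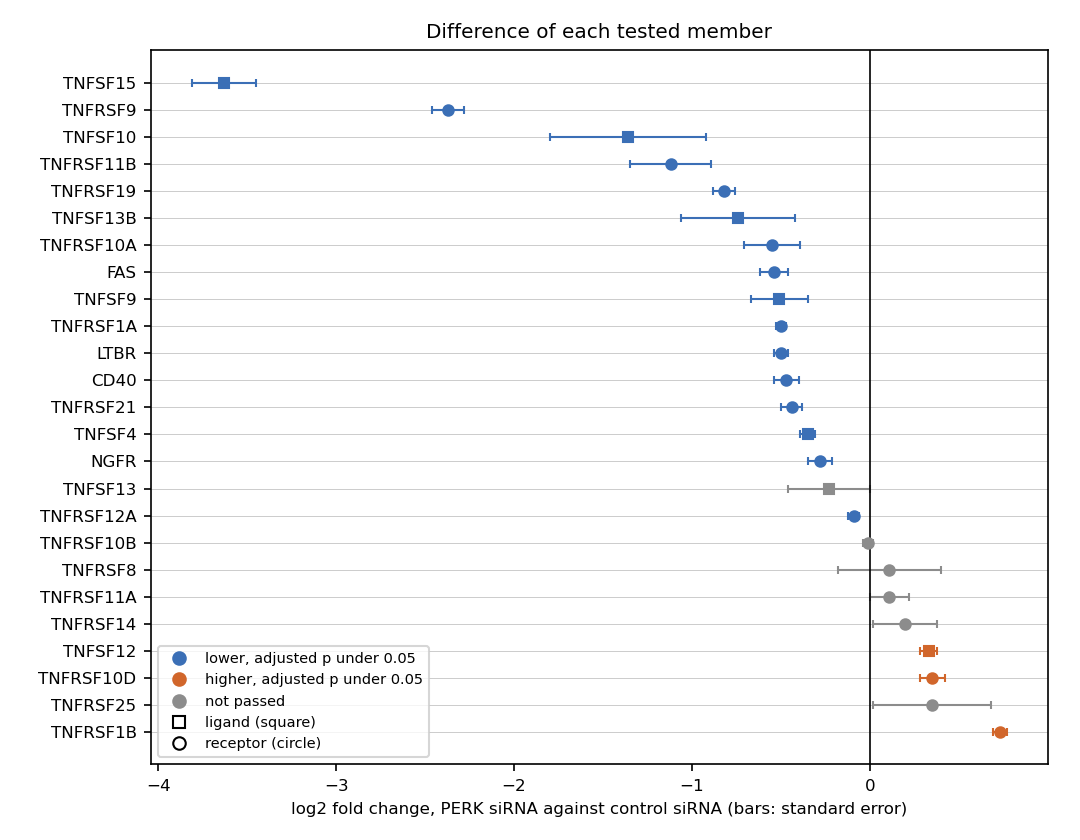
Log2 fold change of each of the 25 tested members, PERK siRNA against control siRNA (n = 3 each), with its standard error as a bar; squares are ligands, circles receptors, and colour gives the call. TNFSF15 (-3.63) and TNFRSF9 (-2.37) lie farthest to the left, and TNFRSF1B (0.73) is the highest of the 3 members called higher.

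TNFSF15 had the largest difference in the family. It encodes TL1A, a ligand of the death-domain receptor DR3 (TNFRSF25) that also binds the soluble decoy DcR3 (TNFRSF6B), and lies at chr9:114784635-114806126 on the minus strand (GRCh38). The control samples held 172, 213 and 174 reads and the PERK siRNA samples 9, 16 and 19, or 8.75, 11.4 and 9.01 CPM against 0.504, 0.819 and 0.989 CPM. Every PERK siRNA sample was thus under 1 CPM and every control sample over 8, with no overlap. The level was 12.4-fold lower (log2 fold change -3.63, SE 0.18, adjusted p = 2.8e-16), and remained past the threshold in all 17 alternatives (log2 fold change -3.85 to -3.42). Its receptor was scarce: TNFRSF25 stood at 0.61, 0.536 and 0.725 CPM in controls and 0.841, 0.614 and 0.937 CPM with PERK siRNA. These overlapped, and the difference did not pass (0.35, 95% confidence interval -0.34 to 1.03, adjusted p = 0.37). Of the TNFRSF25 exon bases 11.4% are shared with other protein-coding genes.

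TNFRSF9 was next. It encodes 4-1BB (CD137), a co-stimulatory receptor best known from activated T cells, and lies at chr1:7915894-7943165 on the minus strand. Its level was 29.4, 28.7 and 25.3 CPM in the control samples, against 4.65, 5.07 and 6.35 CPM after PERK siRNA. The lowest control sample was well above the highest PERK siRNA sample, and the level was 5.17-fold lower (-2.37, SE 0.09, adjusted p = 4.0e-18). The T cell markers above were at or near 0 in every library. TNFSF9, its ligand 4-1BBL, was scarcer and fell less, from 3.61, 4.34 and 3.68 CPM to 2.86, 2.81 and 2.50 CPM, without overlap (-0.51, SE 0.16, adjusted p = 0.0064). Against a 1.2-fold change TNFSF9 did not pass (adjusted p = 0.059, with 0.0029 to 0.059 over its alternatives).

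To show the DNA before the starts of these genes and of the member with the largest rise, the 250 bases ahead of the RefSeq start (GRCh38.p14) are given 5′ to 3′ along the gene. Capitals mark matches to the κB consensus (the binding word of NF-κB, searched on both strands) and to the AP-1 word TGANTCA, where N is any base. For TNFSF15 the window listed belongs to an internal start, that of the shorter transcript, and the start of the longer one was not used here. The TNFRSF9 start used here also lies inside the GENCODE v29 span of the gene given above. The windows are chr1:7940840-7941089 (minus strand) for TNFRSF9, chr9:114792531-114792780 (minus strand) for TNFSF15, and chr1:12166741-12166990 (plus strand) for TNFRSF1B.
TNFRSF9: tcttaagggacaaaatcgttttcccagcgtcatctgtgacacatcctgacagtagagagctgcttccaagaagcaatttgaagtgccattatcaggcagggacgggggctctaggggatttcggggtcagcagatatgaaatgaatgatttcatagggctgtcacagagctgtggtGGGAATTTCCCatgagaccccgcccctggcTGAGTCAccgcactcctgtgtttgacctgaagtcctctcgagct
TNFSF15: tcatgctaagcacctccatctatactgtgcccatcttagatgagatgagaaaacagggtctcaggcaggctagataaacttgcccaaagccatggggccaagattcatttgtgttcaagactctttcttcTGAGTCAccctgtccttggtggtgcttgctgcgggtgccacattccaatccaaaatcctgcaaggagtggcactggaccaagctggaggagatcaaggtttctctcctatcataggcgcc
TNFRSF1B: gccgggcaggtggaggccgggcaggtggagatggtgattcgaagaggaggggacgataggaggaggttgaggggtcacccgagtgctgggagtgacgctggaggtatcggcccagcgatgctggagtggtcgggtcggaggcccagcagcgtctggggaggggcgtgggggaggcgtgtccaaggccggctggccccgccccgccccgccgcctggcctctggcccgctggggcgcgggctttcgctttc

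In the TNFRSF9 window a κB match on each strand, the pair overlapping, begins at position -74 and at -73 from the start, and an AP-1 word begins at -44. The TNFSF15 window holds an AP-1 word at -120 and no κB match, and the TNFRSF1B window, with a GC content of 72.4%, holds neither. Windows of 300 bases (250 before to 50 after a start) were listed for 27 of the 40 members, 36 windows in all, some of them overlapping. A κB match lay in 10 of the 36 (27.8%), from 8 genes, beside 6.5% of 21614 windows of protein-coding genes. The AP-1 word lay in 6 (16.7%), from 5 genes, beside 6.2%. TGATGNAA, part of the composite word that ATF4 and C/EBP proteins read, was in none, beside 2.7% of all windows. With so low a share, 36 windows are too few to read this as a lack. None of the genes with a match was called higher, but only 3 members were called higher at all. The matches thus say nothing about direction. Of the 8 genes with a κB match, TNFRSF9 and FAS were lower, TNFRSF14, TNFRSF25 and TNFSF13 did not pass, and LTA, LTB and TNFSF14 were too scarce to test. Of the 5 with the AP-1 word, TNFRSF9, TNFSF15 and FAS were lower, TNFRSF8 did not pass and TNFSF14 was not tested. A match is a description of the letters, not evidence of binding.

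The receptors of TNF itself changed in opposite directions, which brought their levels closer together. TNFRSF1A, the death-domain receptor TNFR1 (chr12:6328757-6342114, minus strand), stood at 168, 173 and 161 CPM in controls and at 120, 118 and 117 CPM with PERK siRNA. All PERK siRNA samples lay below all controls (-0.50, SE 0.03, adjusted p = 9.3e-15). TNFRSF1B, the TRAF-binding receptor TNFR2 (chr1:12167003-12209228, plus strand), went the other way, from 40.5, 41.2 and 38.2 CPM to 65.6, 65.5 and 68.2 CPM. Again the groups did not overlap (0.73, SE 0.04, adjusted p = 1.8e-15), and this was the 1 rise in the family that also passed against a 1.2-fold change. Per exon base, with the deposited lengths, TNFRSF1A reads outnumbered TNFRSF1B reads by 5.53, 5.6 and 5.6 to 1 in the controls. With PERK siRNA they did so by 2.44, 2.40 and 2.28 to 1. The deposited length is 0.69 times that of GENCODE v29 for TNFRSF1A and 0.98 times for TNFRSF1B, so these ratios depend on the lengths. Per kb of GENCODE exon, TNFRSF1A and TNFRSF1B stood at 41.8 and 10.6 CPM in controls and 29.5 and 17.6 CPM with PERK siRNA. The log2 ratio differed by -1.23 (exact permutation test, two-sided p = 0.1, the smallest p that 3 against 3 samples allow). Both ratios given in this report were chosen after their values were seen.

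No TNF read was found in any of the 6 samples (chr6:31575567-31578336), which limits the transcript to under the floor given above. LTA, encoding lymphotoxin-α, had 0 to 4 reads and LTB, lymphotoxin-β, 0 to 2 reads per sample. These 3 genes lie next to each other, with 1242 bases between LTA and TNF and 2188 between TNF and LTB. LTBR, the receptor of lymphotoxin heterotrimers and of LIGHT (TNFSF14), was by contrast abundant. Its level was 93.3, 98.8 and 95.8 CPM in the controls and 69.4, 68.3 and 66.0 CPM with PERK siRNA. All 3 PERK siRNA samples were lower (-0.50, SE 0.04, adjusted p = 2.9e-13). LTBR lies 32.9 kb from TNFRSF1A on chromosome 12, and both were 1.41-fold lower. TNFSF14 had at most 1 read in a sample. Its other receptor, TNFRSF14 (HVEM), stood at 2.85, 2.31 and 2.64 CPM and 2.63, 3.63 and 2.65 CPM. Those samples overlapped and the difference did not pass (0.20, 95% confidence interval -0.18 to 0.57, adjusted p = 0.35).

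**Figure D2:**
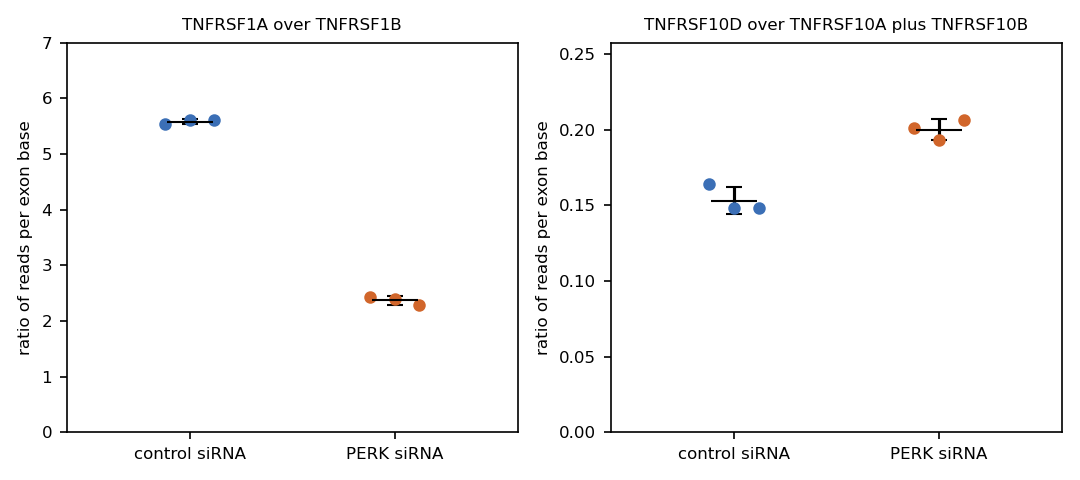
Ratios of reads per exon base (deposited lengths) in each sample (points), with the mean and SD of 3 samples (bars). The TNFRSF1A to TNFRSF1B ratio is 5.53 to 5.6 in control samples and 2.28 to 2.44 with PERK siRNA, and the TNFRSF10D ratio is 0.148 to 0.164 and 0.193 to 0.206.

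The TRAIL receptors form a cluster on chromosome 8, where TNFRSF10B, TNFRSF10C, TNFRSF10D and TNFRSF10A follow each other with 18.1 to 33.4 kb between neighbours. TNFRSF10B encodes DR5, which passes on the death signal and is a textbook target of CHOP, the factor downstream of PERK. It was the most abundant of them, at 99.6, 106 and 103 CPM in controls and 101, 102 and 103 CPM with PERK siRNA. The groups overlapped closely, and the difference did not pass (-0.01, adjusted p = 0.78), with a narrow 95% confidence interval of -0.08 to 0.06. Of its reads 92.3% were placed uniquely, and on unique reads the log2 fold change was 0.01 (adjusted p = 0.71, with 0.40 to 1.0 over its alternatives). DR4, encoded by TNFRSF10A, was lower, at 3.97, 4.24 and 3.62 CPM against 2.58, 2.97 and 2.50 CPM, without overlap (-0.55, SE 0.16, adjusted p = 0.0032).

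The decoy for TRAIL with a truncated death domain, TNFRSF10D (DcR2), was higher, at 15.2, 14.7 and 14.1 CPM against 18.6, 18.1 and 19.4 CPM. Every PERK siRNA sample lay above every control sample (0.35, SE 0.07, adjusted p = 5.6e-05), although the rise did not pass against a 1.2-fold change (adjusted p = 0.092, with 1.1e-05 to 0.092 over its alternatives). TNFRSF10C, the decoy anchored by lipid, had 0 to 3 reads per sample. Per exon base, the ratio of TNFRSF10D to TNFRSF10A and TNFRSF10B together was 0.164, 0.148 and 0.148 in the controls and 0.201, 0.193 and 0.206 with PERK siRNA. In log2 this differed by 0.38 (exact permutation test, two-sided p = 0.1, again the smallest possible). TRAIL itself, TNFSF10, was scarce and lower, with 17, 14 and 14 reads in the controls and 1, 6 and 10 with PERK siRNA. No sample overlapped (-1.36, SE 0.44, adjusted p = 0.0077), but the call was lost without PERK siRNA replicate 1, the sample with 1 read (-0.91, adjusted p = 0.072, with 0.0018 to 0.072 over its alternatives). TNFRSF11B, osteoprotegerin, a soluble decoy for RANKL and TRAIL, fell from 2.54, 2.52 and 2.02 CPM to 1.23, 0.870 and 1.14 CPM. Here too the groups were apart (-1.12, SE 0.23, adjusted p = 1.0e-04).

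RANKL, TNFSF11, had no read in any sample. Its receptor RANK, TNFRSF11A, was at 6.97, 6.17 and 7.35 CPM and at 7.85, 7.42 and 6.87 CPM. The samples overlapped, and the difference did not pass (0.11, 95% confidence interval -0.11 to 0.33, adjusted p = 0.38).

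Other death-domain receptors were lower. FAS, which binds FAS ligand, was at 19.7, 22.7 and 20.5 CPM in controls and 12.2, 15.7 and 15.3 CPM with PERK siRNA. The groups did not overlap (-0.54, SE 0.08, adjusted p = 3.1e-06). FASLG had no read in any sample. In the annotation 8.9% of the FAS exon bases are shared with ACTA2 on the opposite strand, which rose (1.95, from 7.62 to 29.4 CPM), and whether the counting used strand is not given in the sources used here. DR6, TNFRSF21, a receptor studied in nerve cells and lymphocytes, fell from 39.2, 42.5 and 35.6 CPM to 29.9, 27.2 and 29.1 CPM. Its groups were apart too (-0.44, SE 0.06, adjusted p = 2.5e-07).

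NGFR, the neurotrophin receptor p75, is a known marker of stellate cells. It read 59.7, 68.3 and 58.6 CPM in controls and 51.4, 47.6 and 54.5 CPM with PERK siRNA. The lowest control sample stayed above the highest PERK siRNA sample (-0.28, SE 0.07, adjusted p = 0.0024), but the fall did not pass against a 1.2-fold change (adjusted p = 0.38, the highest over its alternatives, the lowest being 3.5e-11). Of the 7 members with a death domain, all of which were tested, 5 were lower and none was higher, while TNFRSF10B and TNFRSF25 did not pass. The share called, 71.4%, was near the 69.5% of all tested genes, of which 35.0% were lower.

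**Figure D3:**
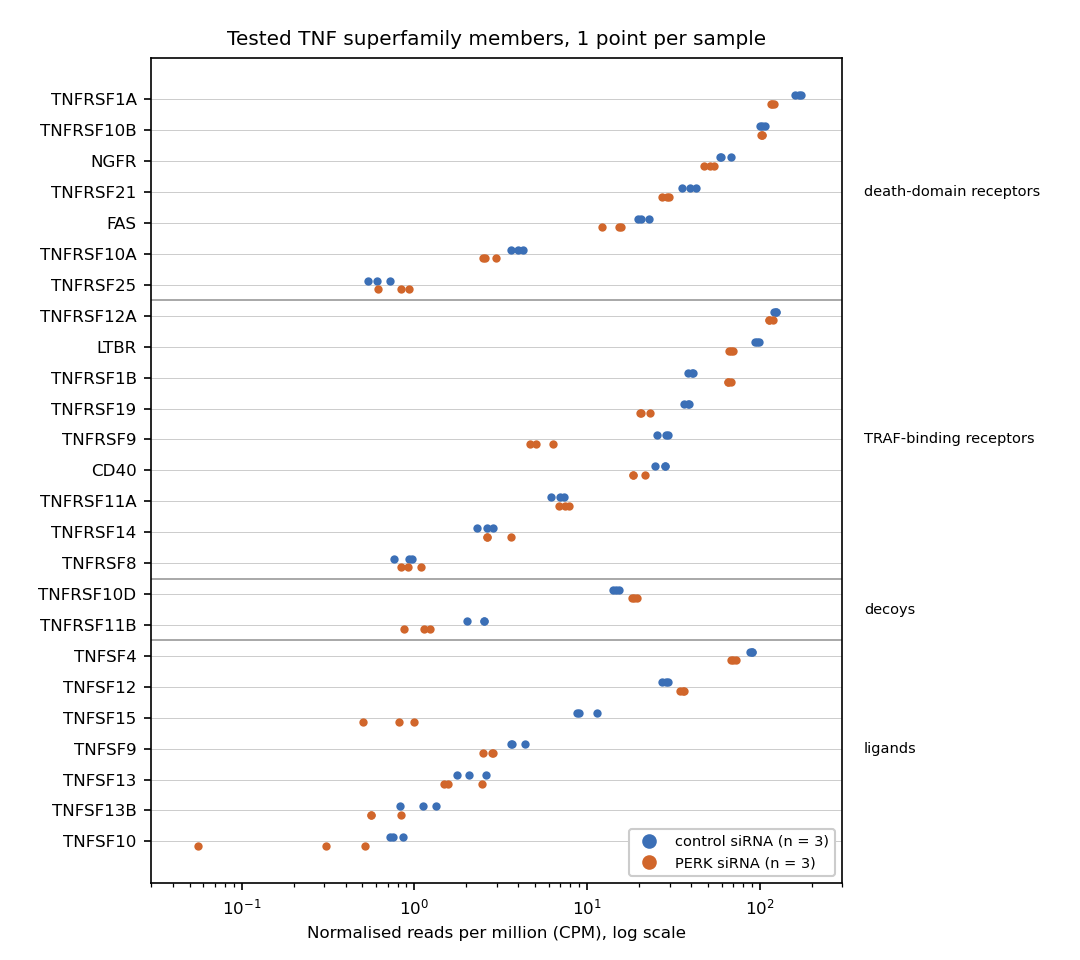
Normalised CPM (log scale) of the 25 tested members in each of the 3 control siRNA and 3 PERK siRNA samples, 1 point per sample, grouped by role. The points of TNFSF15 and TNFRSF9 lie far apart by group, those of TNFRSF10B coincide at 99.6 to 106 CPM, and those of TNFRSF1B, TNFRSF10D and TNFSF12 lie to the right with PERK siRNA.

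Among receptors that bind TRAF adaptors, TNFRSF12A, which encodes Fn14, the receptor of TWEAK (TNFSF12), was the most abundant. It was at 124, 120 and 124 CPM in controls and at 113, 113 and 119 CPM with PERK siRNA. The difference was small though the samples did not overlap (-0.09, SE 0.03, adjusted p = 0.0094), and it was far from passing against a 1.2-fold change (adjusted p = 1.0, with 0.0032 to 1.0 over its alternatives). TWEAK itself rose, from 29.3, 27.1 and 28.6 CPM to 36.4, 36.0 and 34.5 CPM. The groups did not overlap (0.33, SE 0.05, adjusted p = 1.8e-06), and against a 1.2-fold change TNFSF12 did not pass (adjusted p = 0.089, with 8.2e-09 to 0.089 over its alternatives). Unique placement held for only 69.5% of TNFSF12 reads, and the gene shares 29.4% of its exon bases with the read-through gene TNFSF12-TNFSF13. On unique reads the log2 fold change was 0.34 (adjusted p = 1.2e-06).

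CD40, the receptor of CD40 ligand on antigen-presenting and mesenchymal cells, was lower. It was at 28.2, 28.1 and 24.7 CPM in controls and 18.5, 21.5 and 18.4 CPM with PERK siRNA. No sample crossed between groups (-0.47, SE 0.07, adjusted p = 7.5e-07). TNFRSF19, known as TROY, a receptor with no established ligand of the family, fell from 38.8, 36.2 and 38.3 CPM to 23.2, 20.6 and 20.3 CPM. This was the largest fall among members over 30 CPM in the controls, again without overlap (-0.82, SE 0.06, adjusted p = 1.5e-13). TNFRSF8, which encodes CD30, was near 1 CPM throughout, at 0.763 to 0.965 CPM in controls and 0.841 to 1.09 CPM with PERK siRNA. Its groups overlapped and did not differ past the threshold (0.11, 95% confidence interval -0.49 to 0.71, adjusted p = 0.76).

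Of the ligands, TNFSF4 was the most abundant. It encodes OX40L, a co-stimulatory ligand of antigen-presenting and endothelial cells, and read 89.9, 89.6 and 87.4 CPM in controls and 72.9, 69.7 and 67.6 CPM with PERK siRNA. The groups did not overlap (-0.35, SE 0.04, adjusted p = 1.0e-09). Its receptor OX40, TNFRSF4, had 1 read in each group. BAFF, TNFSF13B, a survival factor of B cells, was at 1.12, 1.34 and 0.828 CPM and at 0.561, 0.563 and 0.833 CPM. The lowest control sample lay below the highest PERK siRNA sample, so the groups overlapped, and the call was weak (-0.74, SE 0.32, adjusted p = 0.040). It was lost in 8 of 16 alternatives, among them DESeq2 (adjusted p = 0.15), and without control replicate 1 (0.089) or 2 (0.18) or PERK siRNA replicate 1 (0.13) or 2 (0.13), the range over all alternatives being 0.023 to 0.18. APRIL, TNFSF13, was at 2.59, 1.77 and 2.07 CPM and at 1.57, 1.48 and 2.45 CPM, with overlap. It did not pass (-0.23, 95% confidence interval -0.69 to 0.24, adjusted p = 0.39), with unique placement for 39.9% of TNFSF13 reads and 55.5% of exon bases shared with TNFSF12-TNFSF13.

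The remaining 15 members did not reach the expression filter (10 reads at the median depth, or 0.518 CPM, in enough samples). TNF, FASLG, TNFSF11 and TNFRSF13B had no read in any sample. TNFRSF13C, the BAFF receptor, had 5, 6 and 3 reads in controls and 8, 18 and 13 with PERK siRNA. All its PERK siRNA samples were higher, and without the filter it was called (1.46, SE 0.52, adjusted p = 0.010). It also passed the filter and was called higher when control replicate 1, 2 or 3 or PERK siRNA replicate 1 was left out (1.24 to 1.71, adjusted p = 0.004 to 0.03). Its control samples, at 0.155 to 0.322 CPM, lay under the cutoff. TNFRSF13C thus passed the filter only through PERK siRNA samples, where it was high, so these runs add no support for the rise. TNFRSF17, the plasma cell receptor BCMA, had 2, 2 and 7 reads in controls and 1, 0 and 0 with PERK siRNA (-3.03, SE 1.2, adjusted p = 0.023 without the filter). For TNFRSF6B, the decoy DcR3, 12, 0 and 0 reads were listed in controls and 11, 7 and 10 with PERK siRNA, only 12.5% of them unique. All of its exon bases are shared with other protein-coding genes, so these reads cannot be assigned to it with confidence. TNFRSF4, TNFRSF10C, TNFRSF18, TNFSF8, TNFSF14, TNFSF18, LTA and LTB had at most 6 reads in any sample. None of those 8 was called without the filter.

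Levels between genes were compared per exon base, as the deposited TPM. TNFRSF12A ranked first at 306 ± 4.04 TPM in the controls, then TNFRSF1A at 210 ± 9.69 TPM, LTBR at 139 ± 4.77 TPM, TNFRSF10B at 89.8 ± 3.50 TPM and TNFSF4 at 83.0 ± 1.81 TPM (SD, n = 3 each). With the deposited lengths these 5 kept their ranks with PERK siRNA, at 285 ± 8.90, 148 ± 2.17, 97.7 ± 2.51, 88.7 ± 1.10 and 65.1 ± 2.34 TPM (SD, n = 3 each). No neighbouring pair of these 5 overlapped between genes within the control samples, whose ranges were 301 to 309, 200 to 219, 135 to 144, 86.9 to 93.7 and 81.0 to 84.3 TPM. CD40, TNFRSF21, TNFRSF1B and TNFSF12 followed NGFR within 36.7 to 44.9 TPM in the controls, and within these 4 each range overlapped that of its neighbour in the order. With the deposited lengths TNFRSF1B rose from rank 9 to rank 6 with PERK siRNA, and TNFRSF9 fell from rank 12 to rank 17. The exon length deposited for FAS, 19218 bases, is 4.52 times that of GENCODE v29, which lowers its TPM, and those of LTBR and TNFRSF14 are 0.38 and 0.44 times theirs. The order depends on these lengths. Per kb of GENCODE exon, TNFRSF12A and TNFRSF1A stayed first in both groups, but LTBR ranked 5 in controls (15.3 CPM per kb) and 8 with PERK siRNA (10.8 CPM per kb). On that scale TNFSF4 (22.6 CPM per kb) and TNFRSF10B (19.9 CPM per kb) stood above LTBR in the controls. The 15 ligands together held 136 to 141 TPM in the controls and 119 to 124 TPM with PERK siRNA, and the 25 receptors 969 to 1023 TPM and 833 to 849 TPM.

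Family genes that the naming rule does not take were read beside the members. RELT, a receptor without a death domain, was lower (-0.63, from 43.4 ± 2.93 to 28.1 ± 1.36 CPM; SD, n = 3 each), as was the ectodysplasin receptor gene EDA2R (-0.73, from 4.37 ± 1.00 to 2.63 ± 0.36 CPM). The ligand genes CD70 (0.10, adjusted p = 0.34) and EDA (0.11, adjusted p = 0.31) did not pass. CD40LG had no read, and CD27 and EDAR were too scarce to test.

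Inside the cell, the adaptors of TRAF-binding receptors were mostly lower. Of 12 genes of TRAF adaptors and cIAPs, the ubiquitin ligases that TRAF2 carries, 8 fell and 1 rose, the median being -0.48 in log2 fold change. The share called, 75%, was near the 69.5% of all tested genes, and 66.7% were lower, beside 35.0%. The cIAP genes BIRC2 (from 123 ± 3.10 to 61.7 ± 2.14 CPM; SD, n = 3 each; -0.99) and BIRC3 (-1.14), and the adaptor genes TRAF4 (-0.75) and TRAF3 (-0.47), were the clearest. In the noncanonical NF-κB list, the route used by LTBR, CD40 and Fn14, 8 of 9 genes fell and none rose (median -0.39). The share lower was 88.9%, beside 35.0% of all tested genes. This route's kinase gene MAP3K14, encoding NIK, fell (-0.29), as did CHUK (-0.30), NFKB2 (-0.39), RELB (-0.98), TRAF2 (-0.20) and the TRAF3, BIRC2 and BIRC3 genes already named, while OTUD7B did not pass (0.01, adjusted p = 0.88). TRAF2, TRAF3, BIRC2 and BIRC3, which hold this route back, stand on both lists. The falls therefore give no direction for the activity of the route, which was not tested. Against a 1.2-fold change 5 of the 9 were lower.

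Upstream kinases of the canonical route did not follow one direction. Among 13 genes around TAK1 and the IKK complex, 5 rose and 6 fell (median -0.06). The shares were 38.5% higher and 46.2% lower, beside 34.4% and 35.0% of all tested genes. TAB2, an adaptor of TAK1, rose 2.92-fold (1.55, from 48.0 ± 1.04 to 140 ± 2.22 CPM; SD, n = 3 each), and MAP3K7, TAK1 itself (0.56), and the NF-κB subunit gene RELA (0.49) rose, whereas the inhibitor gene NFKBIE fell (-0.65). Against a 1.2-fold change, 3 of the 5 rises and 3 of the 6 falls remained called. Genes of ubiquitin editing at the receptors gave 6 rises and 6 falls among 14 (median 0), shares of 42.9% each. OTULIN, which removes linear ubiquitin chains (-0.80), RNF11 (-0.91) and the ubiquitin ligase gene ITCH (-0.57, 50.5% of reads unique) fell. UBE2V1 was higher (0.43), but only 0.707% of its reads were placed uniquely.

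Among 14 tested genes of death receptor signalling, 5 rose and 5 fell (median -0.01), shares of 35.7% each beside 34.4% and 35.0% of all tested genes. CFLAR, encoding the caspase-8 inhibitor FLIP, rose (0.46), and MLKL, the effector of necroptosis, fell (-0.73). Against a 1.2-fold change 2 of these rises and 3 of the falls were called.

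Among 11 tested genes of the release of ligands and receptors from the membrane, 6 fell and 1, SPPL2B, rose (0.54), with a median of -0.28. The share called, 63.6%, was under the 69.5% of all tested genes, and 54.5% were lower, beside 35.0%. The processing protease gene FURIN had a log2 fold change of -1.43 (262 ± 6.78 against 97.4 ± 3.01 CPM; SD, n = 3 each) and was called lower. Likewise ADAM10 (-0.75), MMP14 (-0.74) and TIMP3 (-0.47), an inhibitor of ADAM17, fell. ADAM17 itself did not pass (-0.06, adjusted p = 0.45). With an inhibitor among the falls, they give no direction for the release, which was not tested. Without PERK siRNA replicate 1, 2 genes of this list were called higher. Of 16 tested transcripts known to be induced by TNF, 14 fell and 1 rose (median -1.10). The rise was that of TNFAIP3 (0.62, from 25.8 to 39.6 CPM), which also stands on the list of ubiquitin editing. The share lower was 87.5%, beside 35.0% of all tested genes. The smallest adjusted p were those of MMP9 (-1.88), SOD2 (-0.93), CXCL1 (-1.90) and CCL2 (-1.57), while TNFAIP6 had the largest fall (-2.40). TNF itself, as given above, had no read in either group. Partners of NGFR moved the other way, with 6 rises and 1 fall among 8 tested (median 0.48). Here 75% were higher, beside 34.4% of all tested genes. The neurotrophin gene BDNF rose from 9.68 ± 0.94 to 21.1 ± 1.5 CPM (1.12; SD, n = 3 each), and from the same list the receptor gene NTRK3 (0.64) and the p75-binding protein gene BEX3 (0.59), rose as well. SORT1, the co-receptor for pro-neurotrophins, fell (-0.67).

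**Figure D4:**
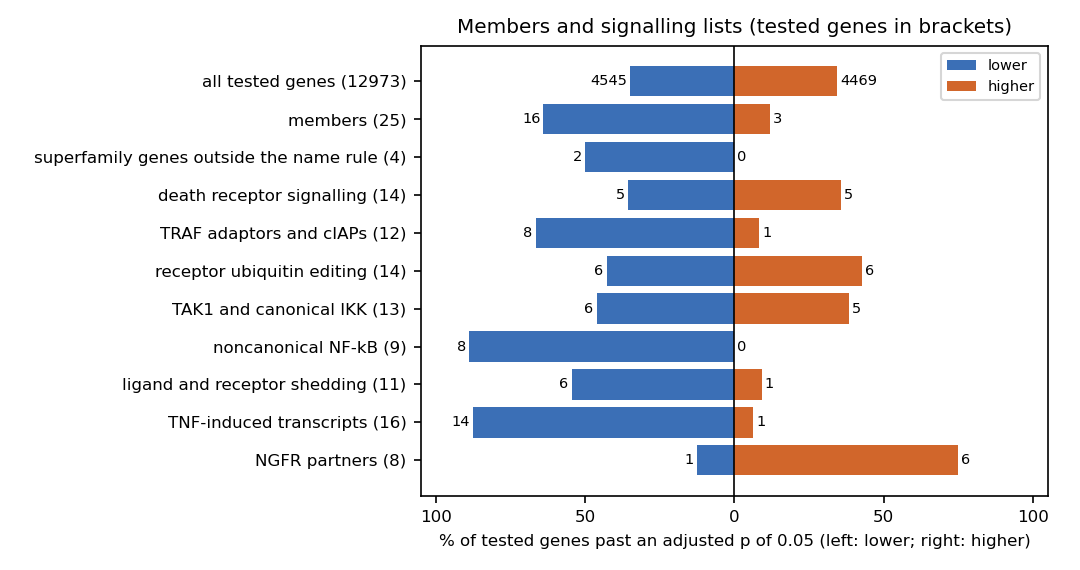
Share of tested genes called lower (left) and higher (right) after PERK siRNA (adjusted p under 0.05), for all 12973 tested genes, the 25 tested members and 9 signalling lists; numbers at the bars are gene counts. Among the members 16 were lower and 3 higher, and for all genes 4545 and 4469.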

How the data were processed

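Gene tables of the 6 samples were used as deposited by the authors. They list total and unique exon read counts per gene, exon length and TPM, per the file headers. Reads were placed on hg38, as the submitters' processing notes name it. The aligner, counter and strand setting: not given in the sources used here. Deposited TPM served for levels between genes and total exon read counts for tests.

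All 20049 protein-coding rows entered edgeR 4.0.16 (R 4.3.3; TMM factors, filterByExpr, robust quasi-likelihood F test). Benjamini-Hochberg adjustment ran over 12973 tested genes, with a threshold of 0.05. The standard error is the log2 fold change divided by the square root of F. The method was tested on simulated data. Members, lists and markers were chosen with earlier results of these data known. Members past the threshold or at 1 CPM or more are given by sample, the others by ranges or reads. Of lists with over 9 genes, the 4 with the smallest adjusted p are named, except that some genes of the death receptor signalling list are not reported here. Gene positions are from GENCODE v29 (GRCh38), promoters from RefSeq (GRCh38.p14). Alternatives included DESeq2 1.42.0, other scaling factors and filters, unique reads, a 1.2-fold null and leaving out each sample.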

Additional observations from a re-analysis of the deposited data

How the results depend on the processing

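The count of members called higher was 3, and fell to 1 when tested against a 1.2-fold difference, which by construction calls fewer genes. It was 3 to 4 when 1 sample was left out, the added member being TNFRSF13C, which passed the filter only through PERK siRNA samples. Members called lower numbered 16, and 12 to 16 over the other alternatives, 14 to 16 with 1 sample left out. Of 25 tested members, 18 kept their side of the threshold in each alternative run. No member that was called changed direction; TNFRSF10B, not called, ranged from -0.04 to 0.01. Other scaling factors moved the median log2 fold change of all genes by at most 0.02.

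With the replicate number as a replicate block, 3 members were higher and 15 lower. Deviations of same-numbered samples correlated at 0.01, -0.03 and -0.03 over 12973 genes, which gave no sign of a pairing. Beyond counting error, the spread within groups was small (common biological coefficient of variation 2.16%). The deviations may thus be largely counting error, so a pairing is not excluded. The alternatives for both ratios, and the order by GENCODE exon length, were chosen after seeing the data. Low read numbers limit TNFSF10, TNFSF13B, TNFRSF25, TNFRSF8 and the 15 untested members.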
